A study of Homo sapiens with 4 samples.

Results

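The distal part of the short arm of chromosome 1, band 1p36, is often lost in neuroblastoma, and its loss often accompanies *MYCN* amplification. Here the H3K27ac peaks of this stretch were taken from the peak list of control cells (sgCtrl) and from that of *SNHG1*-depletion cells (sgSNHG1), by position alone: every peak on chromosome 1 that ended at or before base 28000000 of GRCh38. The rule found 1744 of 63699 sgCtrl peaks and 1226 of 50119 sgSNHG1 peaks, which are 2.74% and 2.45% of the lists, on 0.924% of the assembled length of chromosomes 1 to 22 and X. GENCODE release 44 places 393 protein-coding genes wholly within the stretch. At its edge, the last sgCtrl peak inside ended at base 27967356, near *XKR8*, with a fold enrichment of 3.36, and the first outside began at base 28087903, near *EYA3*, with a fold enrichment of 9.41. In the sgSNHG1 list the last peak inside ended at base 27960438 with a fold enrichment of 4.25, and the first outside began at base 28087714 with a fold enrichment of 7.31.

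SK-N-BE(2)C is an established neuroblastoma cell line with amplified *MYCN*. The sgCtrl cells had received Cas9 with a non-targeting guide RNA and are labelled wildtype, and the study describes them as 1 clone. The sgSNHG1 cells had received Cas9 with guide RNAs against *SNHG1*, a long noncoding RNA that hosts small nucleolar RNAs, and are labelled *SNHG1* knockout. The study states that its approach lowered *SNHG1* expression without removing it completely. The sgCtrl and sgSNHG1 cells were both selected with puromycin and grown from sorted single cells, so a difference between them is also a difference between clones, and the labels do not say which clone gave each sample. Each group had 2 ChIP-seq samples, which the authors pooled into 1 peak list, so no value per sample exists here, no spread between replicates can be given and no test was made. All intervals are 95% intervals that cover counting error only.

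H3K27ac is an acetyl mark on histone H3 that sits at active promoters and enhancers. The distal 1p genes proposed as neuroblastoma suppressors include *CHD5*, a chromatin remodeller of neurons, *CAMTA1*, a transcription activator, *KIF1B*, a motor protein that can drive apoptosis of sympathetic neuroblasts, *CASZ1*, a zinc finger transcription factor of neural differentiation, *ARID1A*, a subunit of the SWI/SNF remodeller, and *RUNX3*, a RUNX family transcription factor. The same bands also hold housekeeping genes, genes of other tissues and families of near-identical copies such as *PRAMEF*, *NBPF* and *CROCC*.

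The reference sequence of 7 sites is given, 150 bases each, from the plus strand of GRCh38, centred on the sgCtrl summit except for *RUNX3*, where the 150 bases directly upstream of the inner start site are shown. They were chosen to set the sgCtrl peak of highest fold enrichment in the stretch and promoters of listed genes beside a site that had a peak only in sgCtrl, the intronic site that was much lower in sgSNHG1 and a promoter that was higher. The sgCtrl peak at the *CASZ1* site also overlapped no sgSNHG1 peak. Here promoter names the class of the peak, which rests on nearness to a start site, and not the kind of sequence shown. The *KDM1A* and *ARID1A* windows lie within the genes, past their 5′ starts at bases 23019443 and 26693236. Coding bases were not marked off. Capitals mark matches, on either strand, to the GC box CCGCCC and to the AP-1 site TGANTCA, so a match need not lie in noncoding sequence. The other motifs searched had no match in these windows, namely the E-box of the MYC family CACGTG, the ETS site CCGGAAG, the GATA site GATAA and the homeobox site TAATTA.
KDM1A promoter, chr1:23019721-23019870: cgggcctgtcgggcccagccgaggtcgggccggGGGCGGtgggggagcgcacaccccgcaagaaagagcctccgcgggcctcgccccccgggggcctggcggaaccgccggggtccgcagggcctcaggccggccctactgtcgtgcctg
ARID1A promoter, chr1:26697166-26697315: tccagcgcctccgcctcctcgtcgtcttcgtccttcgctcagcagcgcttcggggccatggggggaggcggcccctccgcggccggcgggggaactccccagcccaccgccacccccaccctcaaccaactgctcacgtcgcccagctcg
CHD5 promoter, chr1:6179585-6179734: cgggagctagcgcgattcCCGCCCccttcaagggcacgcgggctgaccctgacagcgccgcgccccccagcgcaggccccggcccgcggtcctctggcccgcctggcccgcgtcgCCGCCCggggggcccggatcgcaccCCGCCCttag
CASZ1 inner start site, chr1:10642668-10642817: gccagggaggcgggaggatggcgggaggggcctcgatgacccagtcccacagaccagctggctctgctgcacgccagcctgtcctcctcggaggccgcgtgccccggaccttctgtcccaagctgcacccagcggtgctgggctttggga
RUNX3 inner start site, chr1:24930277-24930426: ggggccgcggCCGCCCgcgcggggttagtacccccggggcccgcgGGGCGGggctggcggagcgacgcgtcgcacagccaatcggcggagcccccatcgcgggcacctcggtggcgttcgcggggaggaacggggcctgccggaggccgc
PRDM16 intron, chr1:3126327-3126476: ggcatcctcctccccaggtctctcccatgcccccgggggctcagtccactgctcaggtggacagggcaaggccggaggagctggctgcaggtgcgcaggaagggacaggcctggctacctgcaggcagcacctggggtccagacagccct
MUL1 promoter, chr1:20507809-20507958: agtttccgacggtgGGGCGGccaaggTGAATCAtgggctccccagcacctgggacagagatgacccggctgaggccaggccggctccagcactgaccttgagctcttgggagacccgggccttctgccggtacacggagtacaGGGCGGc

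These windows were all rich in G and C, from 66.7% at *MUL1* to 82% at *RUNX3*. They differed in CG dinucleotides, of which the *RUNX3* window held 26 and the *CHD5* window 22, while the *PRDM16* intron and its 69.3% G and C held only 3. The *CHD5* window had 3 GC boxes, the *RUNX3* and *MUL1* windows had 2 each and the *KDM1A* window had 1. In windows of 300 bases around the summit, the GC box occurred in 57.8% (53.6 to 62.0) of the 536 promoter peaks of the stretch in sgCtrl and in 31.0% (28.5 to 33.7) of its 1208 other peaks, against 55.4% and 28.7% of the peaks elsewhere in the genome, and in 37.5% of all sgCtrl peaks.

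Distal 1p lost a larger share of its peaks than the rest of the genome. The ratio of sgSNHG1 to sgCtrl peak numbers was 0.703 (0.654 to 0.756), against 0.789 (0.780 to 0.799) for all other peaks and 0.824 (0.791 to 0.858) for the rest of chromosome 1, where 5030 peaks stood against 4143. The fall was mostly away from promoters, since peaks over 3 kb from a protein-coding start site went from 1208 to 760, or 37.1% fewer, and promoter peaks from 536 to 466, or 13.1% fewer. Elsewhere these falls were 27.9% and 7.10%. The bases covered went from 857677 to 580606, a ratio of 0.677 against 0.770 elsewhere. In the plot of peaks per megabase, all but 1 of the 28 bins held fewer sgSNHG1 than sgCtrl peaks, and the exception had 54 in both lists.

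Of the 1744 sgCtrl peaks of distal 1p, 790 or 45.3% (43.0 to 47.6) overlapped no sgSNHG1 peak. Over the whole sgCtrl list 38.5% did not. Against all peaks outside the stretch the difference was 6.96 percentage points (4.6 to 9.33), and it was seen in promoter peaks, with 28.9% (25.2 to 32.9) against 20.5%, and in other peaks, with 52.6% (49.8 to 55.4) against 47.1%. In the opposite direction, 257 of 1226 sgSNHG1 peaks or 21.0% (18.8 to 23.3) had no sgCtrl peak, and over the whole sgSNHG1 list 20.8% had none. The difference of the sgSNHG1 share from all other sgSNHG1 peaks was 0.21 points (-2.01 to 2.61). Weak peaks went without a counterpart most often, in distal 1p and elsewhere alike. Of the 350 sgCtrl peaks with a −log10 p between 6 and 10, 280 had none, a share of 80% (75.5 to 83.9) against 75.3% elsewhere. Between 10 and 20, where most of the 790 lay, 485 of 911 had none, or 53.2% (50.0 to 56.5) against 47.1%. Between 20 and 50 the share was 7.03% (4.73 to 10.3), from 23 of 327, against 6.52%, and above 50 it was 1.28% (0.35 to 4.55), from 2 of 156, against 0.18%.

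The missing peaks were spread over introns, exons and intergenic ground. Without a counterpart were 54.5% of the 663 intronic sgCtrl peaks, 57.1% of the 203 exonic peaks outside promoters and 46.2% of the 342 intergenic peaks, against 49.9%, 47.1% and 44% elsewhere. GC content moved with this share. In the stretch the share without a counterpart was 62.3% (54.0 to 70.0) in the third decile of GC content and 11.4% (7.59 to 16.8) in the highest decile, and elsewhere 52.6% and 9.27%. In the 8 upper deciles the share was higher in distal 1p than elsewhere, in the second the values were 55.1% and 54.8%, and in the lowest it was lower, at 42.9% (30 to 56.7) against 50.4%. Weighting the other peaks to the same promoter class, GC content and −log10 p as those of distal 1p gave an expected share of 40.8%, so 4.46 percentage points remained. The same weighting of sgSNHG1 peaks gave an expected share of 18.2%, which left 2.78 points (0.59 to 5.15) in that direction too. Weighted by promoter class and −log10 p without GC content, the sgSNHG1 share was below the expected one, by a difference of -1.06 points.

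Peaks of distal 1p stood on a high local background. The number of fragments over each summit (the pileup) and the background around it were recovered from the fold enrichment and the p-value of each peak. In sgCtrl the median pileup was 66 fragments in distal 1p and 55 elsewhere, but the median background was 19.6 against 12.8, so the median fold enrichment was lower, at 3.13 against 3.78. In sgSNHG1 the medians were 57 against 52 for pileup, 16.1 against 12 for background and 3.32 against 3.89 for fold enrichment. Among 87 other windows of 28 Mb, 4 had a higher sgCtrl background and 2 a lower median fold enrichment. The lowest background that any peak of a list had, which follows its depth and fragment length, was 4.89 fragments in sgCtrl and 4.66 in sgSNHG1, a ratio of 0.952.

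Of the peaks in both lists, 943 pairs lay in distal 1p. The pileup ratio of each pair, sgSNHG1 over sgCtrl, was set relative to the median ratio of all shared peaks, which was 0.873. On this scale the median of distal 1p was -0.10 (log2; quartiles -0.33 and 0.18), and that of all other pairs was 0.00. The 375 promoter pairs had a median of 0.08 against 0.20 elsewhere, and the 568 other pairs -0.20 against -0.11. The local background moved the same way, with a median relative log2 ratio of -0.08 in distal 1p and 0.09 elsewhere, and the ratio of fold enrichments was 0.00 (log2) against -0.03. A lower pileup than elsewhere was therefore accompanied by a lower background, whose part in it was not tested. Fewer copies of the stretch in the sgSNHG1 clone and less acetylation per copy cannot be told apart in these lists.

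Among the 894 pairs with a pileup of at least 30 in both lists, 64 or 7.16% (5.65 to 9.04) were at least 1.5-fold lower in sgSNHG1, and 5.04% of all such pairs of the genome were. At least 1.5-fold higher were 31 pairs or 3.47% (2.45 to 4.88), against 8.7% of all pairs. Distal 1p thus held less than its share of raised peaks.

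Compared with windows of the same length on all chromosomes, distal 1p was near one end but not apart from them. Of 87 other windows with at least 100 sgCtrl peaks, 6 had a lower ratio of peak numbers, 7 a lower relative pileup and 7 a larger share of sgCtrl peaks without a counterpart. Of these, 5 on chromosomes 4 and 9 were far lower, with ratios down to 0.359 and relative pileups down to -0.55 (log2). Distal 1p, at 0.703 and -0.10, lay with the lower end of the remaining windows, whose median ratio with them was 0.827.

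Along the stretch the ratios of 3 blocks differed by less than their counting error. In the 4 Mb next to the chromosome end 484 sgCtrl and 320 sgSNHG1 peaks gave a ratio of 0.661 (0.574 to 0.761), from 4 to 16 Mb the ratio was 0.696 (0.613 to 0.790) and from 16 to 28 Mb it was 0.739 (0.658 to 0.829). These intervals overlap. Without the bin from 3 to 4 Mb the ratio next to the end was 0.725 (0.618 to 0.850). That bin had the lowest ratio there and was left out after its value was seen. The ratio therefore had to rise, and only the size of the rise is informative. The median relative pileup was -0.20, -0.09 and -0.05 (log2) in the same order, and the median sgCtrl background was 30.1, 18.1 and 16.3 fragments. The bin from 3 to 4 Mb, which holds *PRDM16*, *MEGF6* and *TP73*, had 124 sgCtrl and 59 sgSNHG1 peaks, a ratio of 0.476 (0.349 to 0.649). The bin from 17 to 18 Mb, the location of the *PADI* genes, had 49 and 25 peaks. The bin from 23 to 24 Mb, with *KDM1A*, *HNRNPR* and *RPL11*, had 54 in each.

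At the level of genes, 292 of 389 protein-coding genes with an annotated protein-coding start site had a promoter peak in sgCtrl and 276 in sgSNHG1. In sgCtrl only were 32 genes, 11.0% of the 292, and 7.07% of all such genes of the genome were. In sgSNHG1 only were 16, 5.80% of the 276, against 4.95% over the genome. Promoter peaks of sgCtrl only with a pileup of at least 90 were those of *TNFRSF4*, a costimulatory receptor of T cells, with 102 fragments, and *HES5*, a Notch target gene, with 95 fragments. They were picked out after their values were seen. Their backgrounds were 41.15 and 32.44 fragments. Their fold enrichments, 2.44 and 2.87, were thus below the median of 3.13 for sgCtrl peaks of the stretch. The *HES5* window kept another peak, of 100 and 99 fragments. For the genes with a promoter peak in both lists the median relative pileup was 0.16 (log2), against 0.26 for genes elsewhere.

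The candidate suppressors were read from a list of 18 genes drawn up with earlier results of these data known. Peaks in their windows (gene body plus 10 kb on either side) numbered 210 in sgCtrl and 126 in sgSNHG1, and 17 of the 18 had a peak in sgCtrl and 15 in sgSNHG1. Of all 393 protein-coding genes of the stretch, 343 and 327 had a peak in such a window. A window that overlaps a neighbour shares its peaks, as for *CAMTA1* and *VAMP3* or *DFFA* and *PEX14*. The promoters of the list went both ways in relative pileup. *ARID1A* had a peak of 426 fragments in sgCtrl and 429 in sgSNHG1, which is 0.21 (0.01 to 0.40) on the relative log2 scale. *KIF1B* had 398 and 384 fragments, or 0.14 (-0.06 to 0.35), and its fold enrichment was above that of 99.6% of sgCtrl and 99.3% of sgSNHG1 peaks. *CAMTA1* had 142 and 163 fragments at its 5′ start, or 0.39 (0.07 to 0.72). *PRDM2*, a zinc finger protein with a methyltransferase domain, had 123 and 152 fragments, or 0.50 (0.16 to 0.84). *CENPS*, a kinetochore protein, had 58 and 88 fragments, or 0.79 (0.31 to 1.26). These values compare with a median of 0.26 for promoters elsewhere, and lower values, at *CASZ1*, *EPHB2*, *CHD5* and *TNFRSF25*, are given with those genes.

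*RUNX3* differed most. The sgCtrl list held 8 peaks in its window and the sgSNHG1 list held none. One of the 8, at chr1:24930034-24930430, covered the inner start site shown above, with 30 fragments, a background of 7.02 and a −log10 p of 10.6. The others lay in introns, an exon and just upstream, with pileups of 30 to 49 fragments and −log10 p from 9.24 to 14.9. The outer start site of *RUNX3* had no peak in either list. Every one of these peaks fell in the range of −log10 p in which most sgCtrl peaks of the stretch had no counterpart. Among the 70 protein-coding genes of distal 1p with at least 8 sgCtrl peaks *RUNX3* was the only one with none in sgSNHG1, and among the 2158 elsewhere there was 1. The cut of 8 equals the sgCtrl number of *RUNX3* itself and uses the sgCtrl list alone, so this standing depends on it. Genes with fewer sgCtrl peaks, such as *HES2* with 2, also had none in sgSNHG1. A ratio of sgSNHG1 to sgCtrl peaks of 0.5 or less was found at 17 of the 70, a share of 24.3%, and at 14.9% of all such genes of the genome.

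*EPHB2*, an ephrin receptor tyrosine kinase, kept the peak at its start site, with 77 fragments in sgCtrl and 55 in sgSNHG1, a relative log2 ratio of -0.28 (-0.78 to 0.21). Its 6 intronic peaks, with 38 to 61 fragments, had no counterpart. *CASZ1* went from 23 to 10 peaks, of which 16 sgCtrl peaks had no counterpart. In sgCtrl its highest peak near a start site was at an inner one, close to the 3′ end of the gene. This peak had 122 fragments and overlapped no sgSNHG1 peak. In sgSNHG1 the highest near a start site had 77 fragments and overlapped no sgCtrl peak. The relative log2 ratio of -0.46 (-0.87 to -0.05) thus compares different peaks. At the 5′ start of *CASZ1* only sgSNHG1 had a peak, of 27 fragments. *TP73*, which encodes the p53 relative p73, went from 24 to 12 peaks, and those near its start sites from 8 to 2. The tallest peak within 3 kb of its 5′ start at base 3652516 lay upstream of it, at chr1:3649480-3649990 in sgCtrl. That peak had 102 and 109 fragments, or 0.29 (-0.10 to 0.68). *CHD5* went from 19 to 11 peaks, with 72 and 54 fragments at its 5′ start, or -0.21 (-0.72 to 0.29). *CAMTA1*, the longest of these genes, went from 84 to 60. The windows of these large genes thus held fewer peaks in sgSNHG1, while *EPHB2*, *TP73*, *CHD5* and *CAMTA1* had a peak within 3 kb of the 5′ start in both lists.

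**Figure D1:**
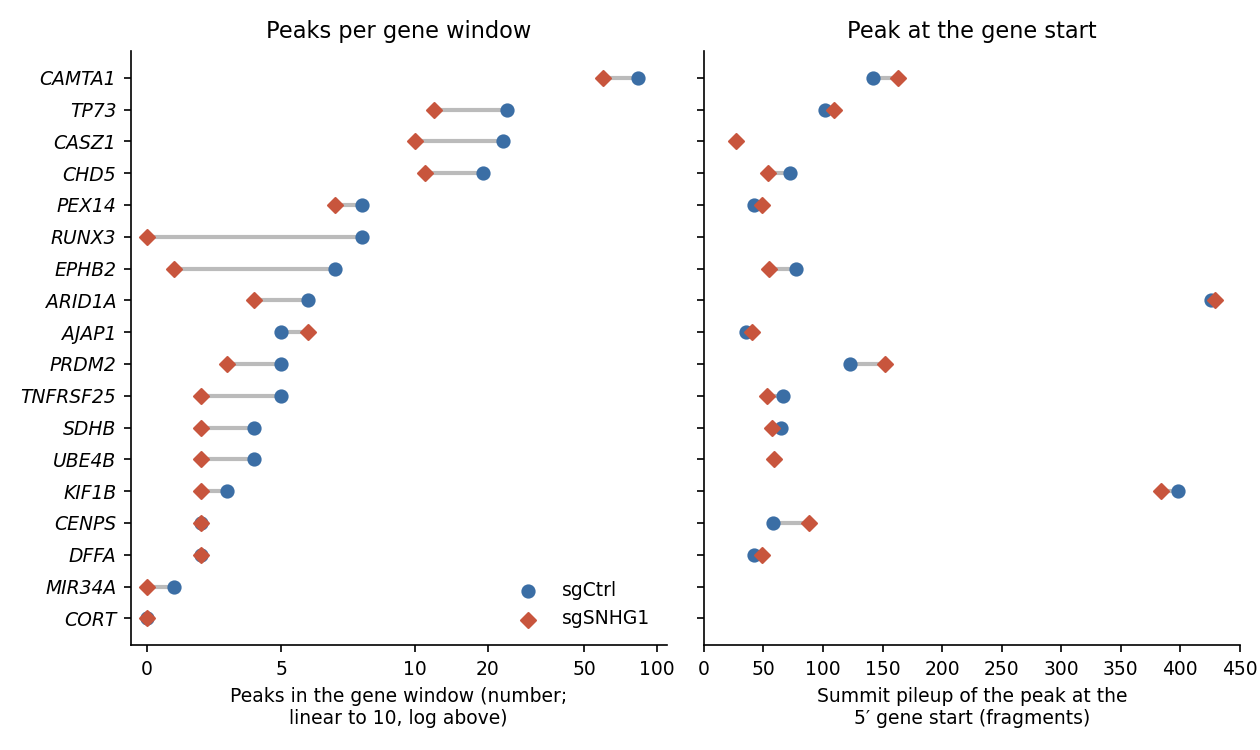
Number of peaks in the window of each of 18 candidate suppressor genes (left, linear to 10 and logarithmic above) and summit pileup of the peak within 3 kb of the 5′ gene start (right, fragments), for sgCtrl (circles) and sgSNHG1 (diamonds). *RUNX3* goes from 8 peaks to 0, *EPHB2* from 7 to 1 and *CASZ1* from 23 to 10, and the tallest start site peaks, at *ARID1A* and *KIF1B*, are of like height in both lists.

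The locus of the microRNA miR-34a, a target of p53, had 1 weak sgCtrl peak within 10 kb, of 26 fragments and a −log10 p of 8.42, and none in sgSNHG1. Its mature strand is shown because it is the only microRNA among the candidates, with the seed, bases 2 to 8, in capitals. The sequence and its place, chr1:9151735-9151756 on the minus strand of GRCh38.p14, are those of RefSeq.
hsa-miR-34a-5p: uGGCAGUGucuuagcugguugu

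*CORT*, which encodes the neuropeptide cortistatin, had no peak in either list. *AJAP1*, a junction protein, had 5 peaks in sgCtrl and 6 in sgSNHG1. *SDHB*, a subunit of succinate dehydrogenase, had 65 and 57 fragments at its start, or 0.01 (-0.50 to 0.52). *TNFRSF25*, a death receptor, had 66 and 53 fragments, or -0.12 (-0.63 to 0.40). *UBE4B*, a ubiquitin ligase, had a start site peak of 59 fragments in sgSNHG1 and none in sgCtrl. *DFFA*, the inhibitor of the caspase-activated DNase, and *PEX14*, a peroxisomal import protein, start close together, at bases 10472529 and 10472288. The tallest peak within 3 kb of these starts, chr1:10475013-10475305 in sgCtrl, had 42 and 49 fragments and covered neither start. For the 14 genes of the list with a promoter peak in both lists, the median relative pileup was 0.18 (log2), with 1 interval below 0 and 4 above it. The interval below 0, that of *CASZ1*, compares peaks that do not overlap. Over all genes of the genome with both promoter peaks, 34.7% of intervals lay above 0 and 4.58% below.

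The list of 23 other regulators of transcription and chromatin held the peak of highest fold enrichment in sgCtrl. *KDM1A*, a histone lysine demethylase, had a fold enrichment of 19.1 in sgCtrl and 19.2 in sgSNHG1, with 297 and 327 fragments. *SPEN*, a corepressor, had 143 and 193 fragments at its 5′ start, or 0.63 (0.31 to 0.94). *SKI*, an inhibitor of TGF-beta signalling, had 241 and 256 fragments there, or 0.28 (0.03 to 0.54). *ZBTB40*, a zinc finger protein, had 112 and 160 fragments at an inner start site, or 0.71 (0.36 to 1.05). In the opposite direction, *PRDM16*, a regulator of brown fat and stem cells, went from 33 to 16 peaks, and its start site peak of 45 fragments had no sgSNHG1 counterpart. Promoter peaks of 3 members of the *HES* family of Notch effectors, *HES2* with 51, *HES4* with 39 and *HES5* with 95 fragments, were present in sgCtrl only. Their fold enrichments were 3.54, 2.71 and 2.87. A promoter peak was found at 22 of the 23 genes in sgCtrl and at 18 in sgSNHG1, beside 292 and 276 of 389 genes over the stretch. The median relative pileup of the listed genes with both was 0.29 (log2), against 0.26 for genes elsewhere, and 9 of 18 intervals lay above 0 and none below, beside 34.7% and 4.58% over all genes. The intervals are narrower for taller peaks.

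Among 18 neuronal and neurite genes, *STMN1*, the microtubule regulator stathmin, had one of the tallest promoters of the stretch, with 296 and 301 fragments, or 0.22 (-0.01 to 0.45). *VAMP3*, a vesicle fusion protein, had 207 and 216. *CLSTN1*, a postsynaptic cadherin-like protein, went from 7 to 2 peaks, with 160 and 120 fragments at its start, or -0.22 (-0.56 to 0.12). *RAP1GAP*, a GTPase activator, went from 12 to 4 peaks and *PLCH2*, a phospholipase of neurons, from 22 to 12. *KCNAB2*, a potassium channel subunit, had 69 and 108 fragments at its 5′ start, or 0.83 (0.40 to 1.27), although its window went from 29 to 21 peaks. *HTR1D*, a serotonin receptor, had 28 and 41 fragments, or 0.73 (0.05 to 1.41). Promoter peaks were found at 15 of the 18 in sgCtrl and 17 in sgSNHG1, beside 292 and 276 of 389 genes over the stretch. The list moved both ways, with a median relative pileup of 0.04 (log2) over 15 genes.

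All 22 genes of the list of growth, metabolism and RNA processing had a promoter peak in both lists, although not always at the same start site. Over the stretch 260 of 389 genes had one in both. The median relative pileup of the 22 was 0.35 (log2), against 0.26 for genes elsewhere. Of the 22 intervals 14 lay above 0 and 1 below, beside 34.7% and 4.58% over all genes. Taller peaks have narrower intervals, and the highest peaks of these genes had a median percentile of fold enrichment of 93.6 in sgCtrl. *ENO1*, a glycolytic enzyme, had 213 fragments in sgCtrl and 292 in sgSNHG1, or 0.65 (0.39 to 0.90). *PGD*, of the pentose phosphate pathway, had 120 and 155, or 0.56 (0.22 to 0.91). *MTOR*, the growth kinase, had 107 and 132, or 0.50 (0.13 to 0.86). *RPL11*, a ribosomal protein, had 134 and 158, or 0.43 (0.10 to 0.76). *CDC42*, a small GTPase, had 332 and 372 fragments and *HNRNPR*, an RNA-binding protein, 352 and 392. The interval below 0 was that of *RPS6KA1*, a ribosomal S6 kinase, whose highest promoter peaks had 92 and 55 fragments, or -0.54 (-1.01 to -0.06). The sgSNHG1 peak of 55 fragments overlapped no sgCtrl peak, so this ratio compares different peaks. The 5′ start of *RPS6KA1* had 57 and 46, or -0.11 (-0.66 to 0.45). *PIK3CD*, a kinase of leukocytes, went from 9 to 4 peaks, and its 5′ start peak of 35 fragments had no sgSNHG1 counterpart.

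Of the 10 genes of cell death and the TNF receptor family, *CASP9*, an initiator caspase, had 66 and 88 fragments at its start, or 0.61 (0.15 to 1.06), and *SFN*, the 14-3-3 protein sigma, 85 and 116, or 0.64 (0.24 to 1.04). *ERRFI1*, an inhibitor of EGFR signalling, had 166 and 129, or -0.17 (-0.50 to 0.17). *TNFRSF8*, the lymphoid receptor CD30, went from 4 peaks to 1. Over the list, promoter peaks were found at 7 genes in sgCtrl and 6 in sgSNHG1, beside 292 and 276 of 389 genes over the stretch.

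The cell type was checked with promoters of adrenergic neuroblastoma genes elsewhere in the genome. Outside distal 1p, 69.1% of protein-coding genes had a promoter peak in sgCtrl and 67.6% in sgSNHG1. Presence alone therefore cannot decide the cell type, since most genes have such a peak. *HAND2*, *GATA3*, *ISL1*, *DBH*, *TH* and *CHGB*, 6 of 6, had a promoter peak in both lists. Their levels moved both ways, from 273 and 125 fragments at *HAND2*, or -0.92 (-1.23 to -0.62), and 155 and 102 at *TH*, or -0.40 (-0.76 to -0.04), to 179 and 248 at *ISL1*, or 0.66 (0.39 to 0.94), and 49 and 75 at *CHGB*, or 0.80 (0.29 to 1.31). *HAND2* lies on chromosome 4, past a window from base 140000001 to 168000000 whose median relative pileup was -0.54 (log2). The part of this region in its fall was not tested. The promoter peaks of *DBH* and *TH* had sgCtrl fold enrichments of 2.468 and 2.496, against a median of 3.754 for all sgCtrl peaks. In sgSNHG1 these were 3.073 and 2.198, against 3.888. Of 14 genes of distal 1p that other tissues use, 11 had any peak in their window in sgCtrl and 8 in sgSNHG1. Of the same 14, 6 and 3 had a promoter peak. Over the stretch, 292 and 276 of 389 genes had a promoter peak, and 343 and 327 of 393 had any peak. *PADI4* of neutrophils, *NPPB* of heart muscle and *PDPN* of lymphatic vessels and stroma had none in either list. Low promoter peaks stood at *C1QA*, a complement gene of macrophages, with 41 and 34 fragments, and at *NPPA*, a heart hormone, with 63 and 71. The window of *FGR*, a kinase of myeloid cells, shares its highest peak with the neighbouring *AHDC1*. The samples came from clones of a cell line, and why these genes held peaks was not tested. At *SNHG1* itself, on chromosome 11, 3 sgCtrl peaks lay within 3 kb of the start site, with 99, 92 and 76 fragments, and 2 sgSNHG1 peaks with 63 and 56.

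The 5 peaks of highest fold enrichment were the same promoters in both lists, those of *KDM1A*, *NBL1*, *HNRNPR*, *CDC42* and *VAMP3*, at 17.8 to 19.1 in sgCtrl and 16.9 to 19.9 in sgSNHG1. *NBL1*, which encodes a BMP antagonist and was named for suppression of neuroblastoma, had 277 fragments in sgCtrl and 339 in sgSNHG1. Among the longest peaks, *ARID1A* reached 2329 bp in sgCtrl and 1919 bp in sgSNHG1.

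In sgCtrl 622 peaks were more than 1 kb away from the nearest sgSNHG1 peak, 35.7% (33.5 to 37.9) of the stretch against 31.4% of the whole list. In sgSNHG1 158 peaks were that far from an sgCtrl peak, 12.9% (11.1 to 14.9) against 13.8% of the whole list, which is near the background. By fold enrichment, the first 5 of sgCtrl had values of 6.34 to 7.81. Of these, 4 lay near *NBPF1*, *OR4F16*, *MMEL1* and *PLCH2* in sequence of which the 30-base stretches had a median of 2 to 10 copies in the reference. The fifth, an intronic peak 20022 bp from the *ZBTB40* start site and of single-copy sequence, had 53 fragments. The 5 highest of sgSNHG1 had fold enrichments of 4.95 to 6.58, and all were of single-copy sequence. Of them, 2 lay upstream of *AJAP1*, 69047 and 202879 bp away, with 39 and 55 fragments, 2 were the promoters of *STPG1*, with 33 fragments, and *AGTRAP*, with 50, and 1 was an intronic peak 90317 bp from the *KAZN* start site, with 27.

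Among shared peaks, chosen for their ratio and so given as a description, one of the lowest was the *PRDM16* intron shown above, 56935 bp from a start site, with 129 and 55 fragments, or -1.02 (-1.47 to -0.57). Peaks near *EPHA2* with 187 and 86, *TTLL10* with 207 and 96 and *MEGF6* with 175 and 82 fragments were also among the 5 lowest. These peaks lay away from promoters. Of the 5 highest, 4 were promoters. *MUL1*, a mitochondrial ubiquitin ligase, had 51 and 100 fragments, or 1.15 (0.67 to 1.64), *GNB1*, a G protein subunit, 60 and 113, or 1.10 (0.65 to 1.55), and *MRTO4*, a ribosome assembly factor, 90 and 150, or 0.93 (0.55 to 1.30). The others, at *CROCC* with 45 and 93 fragments and *PITHD1* with 51 and 84, lay in sequence of 4 and 1144 copies.

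Peaks over 2.5 kb from start sites were joined into clusters and ranked by fold enrichment times length in the manner of the ROSE program, and the clusters past the bend of the ranking were taken as super-enhancers. Distal 1p held 12 of 383 in sgCtrl, 3.13%, and 12 of 299 in sgSNHG1, 4.01%, beside 2.05% and 2% of all joined clusters. These counts depend on the settings: ranked by covered length sgSNHG1 had 7, and with peaks near start sites kept sgCtrl had 27. Ranks are given as a description, since the lists hold 21420 and 17549 clusters. Of the 12 of each list 10 overlapped one of the other. The highest in rank, over *TTC34* near *MMEL1*, stood at rank 23 in sgCtrl and 10 in sgSNHG1, and its peaks had a median of 5.5 and 4 copies. The cluster over *SKI* and *MORN1* held 45 sgCtrl peaks at rank 27 and 27 sgSNHG1 peaks at rank 57. That over *KCNAB2* and *CHD5* held 27 peaks at rank 64 and 15 at rank 45, and that over *AHDC1* held 32 peaks at rank 65 and 16 at rank 108. The cluster over *TP73* and *CCDC27* held 14 peaks at rank 194 and 9 at rank 297. In sgCtrl only were clusters at *EPHA2* and *ARHGEF19* and one near *NECAP2*, which stood at ranks 512 and 465 in sgSNHG1. In sgSNHG1 only were clusters at *FAAP20* and *PRKCZ* and one near *OR4F5* of 6.5 copies, which stood at ranks 488 and 387 in sgCtrl. The remaining shared clusters lay over *ATAD3B* and *SSU72*, at *EIF4G3*, at *CROCC* and, as a pair, near *NBPF1*.

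Peaks of repeated sequence numbered 213 in sgCtrl, 12.2% of the stretch, and 170 in sgSNHG1, 13.9%. Without a counterpart were 39.9% of these sgCtrl peaks and 46.1% of the 1531 of single-copy sequence. In sgSNHG1 the order was the opposite, with 26.5% of repeated and 20.1% of single-copy peaks. The longest stretch with no peak in either list, chr1:12746013-13225853, is 479841 bp long and holds 18 protein-coding genes, of which 13 belong to the *PRAMEF* family of testis and tumour antigens. The next, chr1:13983653-14420480, wholly contains no protein-coding gene, and the third, chr1:191942-609261, holds the olfactory receptor gene *OR4F29*.

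Within 300 bases around the summit, the E-box of the MYC family occurred in 7.84% (5.85 to 10.4) of sgCtrl promoter peaks of the stretch and in 6.04% elsewhere, and in 6.48% of all sgCtrl peaks. Of the 155 sgCtrl promoter peaks without a counterpart 11.6% held it and of the 381 with one 6.30%, but for sgSNHG1 promoter peaks these shares were 5.06% and 5.17%. The GC box was found in 40.7% of the sgCtrl promoter peaks without a counterpart and in 64.8% of those with one, and in sgSNHG1 in 45.6% and 64.9%. A GATA site was found in 3.92% (2.58 to 5.92) of the promoter peaks of the stretch against 6.69% elsewhere, and in 7.21% of all sgCtrl peaks. In sgSNHG1 promoter peaks it was found in 3.22% (upper bound 5.24%) against 7.43%, so both upper bounds lay below the share elsewhere. Away from promoters the sgCtrl share was 6.37% (5.13 to 7.9) against 7.52%, an interval that holds the share elsewhere. The sgSNHG1 share there was 6.18% (4.68 to 8.13) against 8.70%. These shares were not matched for GC content. The median GC content over all peaks was 63.6% in the stretch and 61.8% elsewhere.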

How the data were processed

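H3K27ac ChIP-seq was made from SK-N-BE(2)C cells, 2 sgCtrl and 2 sgSNHG1 samples. Per the submitters' processing notes and the study's methods, adapters were removed with cutadapt and reads aligned to GRCh38 with BWA. The authors merged both replicates and ran MACS2 on the merged reads at a p-value of 1e-06, with all duplicates kept. The deposited lists give a fold enrichment (a ratio to the local background), the −log10 of the p-value, the −log10 of the q-value and a score. No input library is stated for the ChIP-seq. Depth per sample is unknown. The scores and q-values were not used, and read counts per replicate were not analysed here.

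Pileup k and background were recovered from the fold enrichment, (k + 1) / (background + 1), and the Poisson p-value, within 0.001, for every peak of distal 1p. Peaks were shared when they overlapped by at least 1 bp, and paired 1 to 1 by largest overlap for pileup ratios. Intervals are Wilson (shares), Newcombe (differences) or from counts (ratios), at 95%. Copies are occurrences of 30-base stretches of a peak in the reference. Genes came from GENCODE release 44, and for each gene the highest promoter peak of each list was taken. These peaks need not overlap. Values at a 5′ start are those of the tallest peak within 3 kb of it on either side. Computations used Python 3.11.15 with scipy 1.17.1, pandas 2.3.3 and numpy 2.4.6, and plots used matplotlib 3.10.9. They were tested on simulated data.

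The members and gene lists were chosen with earlier results of these data known. Named are the genes of the lists, the 5 peaks of highest fold enrichment per list (of all peaks, and of those over 1 kb from the other list), the 5 longest, the 5 shared peaks with the highest and lowest relative pileup, the 3 longest stretches without a peak and all super-enhancers. Some peaks that this rule takes in are not reported here.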

Additional observations from a re-analysis of the deposited data

How the results depend on the processing

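No paired analysis was possible because each group has a single peak list made by the authors from its merged replicates, and leaving out a replicate was not possible for the same reason. The ratio of peak numbers (0.703) was 0.930 (0.860 to 1.00) with lists of equal size, and the ratio of covered lengths 0.807. The share of sgCtrl peaks without a counterpart (45.3%) was 54.7% when an overlap of 50% of both peaks was required, 35.7% with a counterpart within 1 kb and 34.7% with lists of equal size. For sgSNHG1 peaks (21.0%) it was 35.6%, 12.9% and 28.3%, and 18.4% at a −log10 p of at least 10. The difference of the sgCtrl share from all other peaks stayed above 0 in these, from 4.35 to 7.56 percentage points, also without chromosomes 4, 9 and X. The difference of the sgSNHG1 share, 0.21 points, was 2.78 (0.59 to 5.15) when other peaks were weighted to the same promoter class, GC content and −log10 p, an alternative chosen, like the removal of chromosomes and of repeated sequence, after seeing the data. The promoter share, 30.7% in sgCtrl and 38.0% in sgSNHG1, was 24.1% and 31.7% within 1 kb of a start site and 52.5% and 57.3% with start sites of all genes. It was 33.1% in sgCtrl with lists of equal size and 42.4% in sgSNHG1 at a −log10 p of at least 10. The median relative pileup of shared peaks, -0.10 (log2), was 0.032 for fold enrichment, so its direction rests on the pileup. The cause was not tested. Super-enhancers numbered 7 in sgSNHG1 when ranked by covered length and 27 in sgCtrl when no peaks near start sites were left out. For genes of other tissues the median change in fold percentile, -5.50 points over 8 genes, was 1.48 points over 4 genes within 3 kb of the start sites. Of the values for single genes and gene lists, compared as the change in percentile of the highest peak, 219 stayed close to the value without the alternative. Apart from the reversed list, 69 moved by 10 percentile points or more or changed sign with a small value on either side (for lists, moved by over 1 standard error and 1 point). Peaks near the threshold, and pileups under about 30 fragments, limit what these lists can show.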
